A study of Homo sapiens with 2 samples.

Results

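The genes described here are 37 genes of the ER stress and ATF4 responses, read in Seg-1 cells on U133 Plus 2.0 expression arrays from Affymetrix. They were chosen by symbol, and every probe set (a group of short probes that reports 1 transcript) annotated to exactly 1 of these symbols was used. Such probe sets existed for 36 of the 37 genes, among 19775 genes with a probe set of their own. SYVN1, the ubiquitin ligase of ER degradation, had a probe set annotated to several genes only and was given no value. The genes fall into an ATF4 arm (17 genes), the stress sensors with XBP1 (4), an ER chaperone and folding arm (9) and an ER degradation group (7 listed, 6 measured).

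RNA on 1 array came from Seg-1 cells 72 hours after transfection with FGF-AS siRNA, directed at the RNA antisense to FGF2, a product of the gene NUDT6. RNA on the other array came from Seg-1 cells transfected for the same 72 hours with a negative control siRNA of no known target. Seg-1 is labelled a lung adenocarcinoma line, and the growth protocol gives it as identical to H460; siRNA was used at 25 to 200 nM, with the dose of each array not given in the sources used here. With 1 array in each group, nothing below could be checked against replicates, and no p-value was computed. No untransfected cells were included, so a response shared by both transfections would not show.

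Proteins that enter the ER are folded there by chaperones such as calreticulin and by protein disulfide isomerases. When unfolded protein accumulates, the membrane sensors PERK (EIF2AK3), IRE1 (ERN1) and ATF6 start the unfolded protein response. PERK phosphorylates the initiation factor eIF2, which lowers general translation while favouring translation of ATF4 mRNA, and ATF4 then switches on genes of amino acid supply and of stress adaptation. Kinases that sense amino acid shortage, haem shortage or double-stranded RNA act on the same factor, so ATF4 targets also respond without ER stress. IRE1 splices XBP1 mRNA and ATF6 is cut in the Golgi, and both products switch on ER chaperone and ER degradation genes.

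The siRNA target was lower on both of its probe sets. NUDT6 read 104.5 on the FGF-AS siRNA array against 376.9 on the control siRNA array (230329_s_at), and 77.8 against 267 on the other probe set. Epithelial keratins were bright, with KRT18 at 9327.2 on the FGF-AS siRNA array and 10152.5 on the control siRNA array. The other general epithelial markers were not: EPCAM was dim, at 43.8 with FGF-AS siRNA and 34 with control siRNA. CDH1, at 18.4 with FGF-AS siRNA and 0.9 with control siRNA, was below the signal minimum. Of 4 lung markers, NKX2-1 was below the signal minimum and none of the other 3 read above 110.8 on either array, so the lung lineage markers were dim or below the minimum. The 4 lung markers summed to 212.9 on the FGF-AS siRNA array and 182.3 on the control siRNA array, the 6 general epithelial markers to 13735.9 and 14185.7, the 6 fibroblast markers to 318.1 and 553.8, and the 5 leukocyte markers to 117.1 and 165.3. No marker was at 0 on either array, and the part of other cells in the results below was not tested.

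The differences among the 37 genes were small. Values are log2 ratios of FGF-AS siRNA over control siRNA after adding an offset of 6.1 to each deposited signal, which understates the change of dim genes. A gene is represented by its brightest probe set, and a signal minimum of 23.85 (the mean of both arrays) was passed by all 36 genes. The ratios of these genes ran from -0.49 to 0.91 with a median of 0.08, beside a median of -0.02 over all 12352 genes that passed the minimum. At least 1.5-fold higher were 3 of the 36 genes, against 7.97% of all measured genes, and at least 1.5-fold lower were 0 of 36, against 9.53%. None of the 36 passed 2-fold, which 2.05% of all measured genes did upwards and 2.72% downwards. The 3 genes past 1.5-fold were CHAC1, HYOU1 and MANF, all higher with FGF-AS siRNA, and the nearest below that size was MTHFD2 at 1.45-fold.

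The only error available is the disagreement between probe sets of 1 gene on these arrays. As the SD of a single log2 ratio it was 0.36 for bright probe sets (3050 genes), 0.58 for dim ones (2365 genes) and 0.29 for the genes described here (20 genes with several measured probe sets). It covers neither cultures nor hybridisations. By size, 26 of the 36 ratios lay within the SD of bright probe sets. The largest multiple of the SD for a gene's own brightness was 1.72, for HYOU1. Since this SD leaves out cultures and hybridisations, no single gene is taken as resolved from 0.

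**Figure D1:**
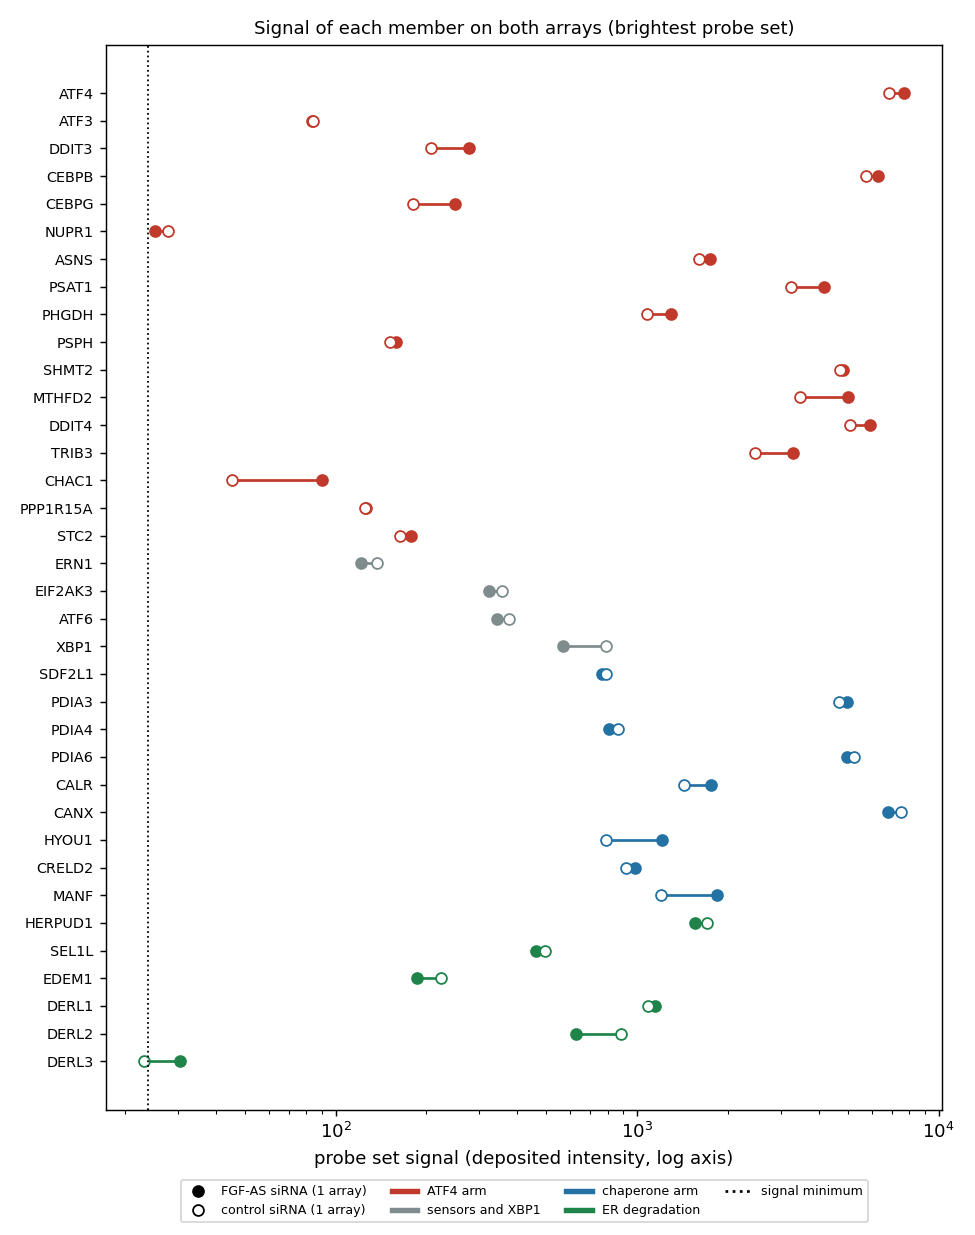
Signals of the 36 genes on the FGF-AS siRNA array (filled) and the control siRNA array (open), by brightest probe set, on a log axis. Most pairs lie close together, and the widest gap is that of CHAC1, at 90.3 with FGF-AS siRNA and 45.2 with control siRNA.

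By their brightest probe set, most genes of the ATF4 arm were slightly higher with FGF-AS siRNA. Of its 17 genes, 15 had a log2 ratio above 0, against 48.1% of all measured genes, and the median was 0.16 (SD across genes 0.25). Among the 13 genes above a stricter signal minimum of 145.15, all 13 were above 0, with a median of 0.21, against 49.4% of the 7719 genes at that minimum. At that minimum 0 of the 13 passed 1.5-fold, which 5.75% of genes did upwards and 5.75% downwards. The exceptions below 0 were the dim NUPR1 and ATF3, whose signs turned under quantile normalization, which lifted the median of all genes to 0.058 and left 15 of 17 above that median. With the mean over measured probe sets, 13 of 17 were above 0. Measured probe sets other than the brightest mostly did not share the direction. They were below 0 in ATF3, CEBPG, PSAT1, MTHFD2, PPP1R15A and STC2, above 0 in PSPH and TRIB3, and split in SHMT2. Over all genes, 37.7% of such probe sets were above 0.

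The transcription factors came first in this arm. ATF4, the factor that gives the arm its name, read 7670 on the FGF-AS siRNA array and 6848.5 on the control siRNA array, a log2 ratio of 0.16. Its activity is set mainly by translation, which an mRNA array does not measure. DDIT3, which encodes the pro-apoptotic factor CHOP, read 277.8 on the FGF-AS siRNA array and 207.5 on the control siRNA array, 1.33-fold higher. CEBPG, a dimer partner of ATF4, read 249.7 with FGF-AS siRNA and 181 with control siRNA on its brightest probe set (0.45), but 160 and 165 on the other (-0.04). The CEBPG difference thus rested on 1 of 2 probe sets. CEBPB, a related factor of stress and inflammation, read 6307.3 with FGF-AS siRNA and 5739.8 with control siRNA, a log2 ratio of 0.14. ATF3, a stress-induced repressor and activator, read 83.4 on the FGF-AS siRNA array and 83.9 on the control siRNA array, and its second measured probe set gave -0.31. NUPR1, a small chromatin protein induced by stress, sat just above the minimum at 25.1 with FGF-AS siRNA and 27.8 with control siRNA.

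The enzymes of amino acid and folate metabolism were all above 0 (6 of 6), against 48.1% of all measured genes, with a median of 0.19. MTHFD2, the mitochondrial folate enzyme, had the highest ratio of them, at 5009.7 on the FGF-AS siRNA array and 3463.3 on the control siRNA array (0.53). Its other probe set, dimmer and marked by its suffix as open to cross-hybridisation (234976_x_at), went the other way at 196.1 and 230.3 (-0.23). The same suffix marks the brightest probe sets of CALR, PDIA6, DERL3, OS9 and GDF15, described below. PSAT1, the aminotransferase of serine synthesis, read 4165.4 with FGF-AS siRNA and 3231.3 with control siRNA (0.37), while its second probe set read 1896.6 and 1906.5 (-0.01). PHGDH, the first enzyme of the serine pathway, read 1299.9 on the FGF-AS siRNA array and 1081.4 on the control siRNA array (0.26). PSPH, the last enzyme of that pathway, differed less, at 159.1 with FGF-AS siRNA and 151.2 with control siRNA (0.07). So the serine pathway genes ran from 0.07 to 0.37, and the highest of these was not shared by both PSAT1 probe sets. ASNS, asparagine synthetase and a classic ATF4 target, read 1748.7 with FGF-AS siRNA and 1607.1 with control siRNA (0.12). SHMT2, which feeds serine into mitochondrial folate metabolism, gave ratios from -0.06 to 0.09 on 3 probe sets.

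Among the feedback and effector genes the ratios ran from 0.00 to 0.91, with a median of 0.21. CHAC1, a glutathione-degrading enzyme that ATF4 and CHOP induce, read 90.3 on the FGF-AS siRNA array and 45.2 on the control siRNA array, 1.88-fold higher. It was the highest ratio of the 36 genes, but its only probe set is dim, and 0.91 is 1.56 times the SD of dim probe sets. TRIB3, a pseudokinase that restrains ATF4 and AKT, read 3290.6 with FGF-AS siRNA and 2464.1 with control siRNA (0.42), and its second probe set gave 645.1 and 538.8 (0.26). Both TRIB3 probe sets were bright and higher with FGF-AS siRNA. DDIT4, an inhibitor of mTORC1, read 5903.7 on the FGF-AS siRNA array and 5094.6 on the control siRNA array (0.21). STC2, a secreted glycoprotein, gave 0.12 and -0.32 on its probe sets. PPP1R15A, the phosphatase subunit GADD34 that reverses eIF2 phosphorylation, gave 126 and 125.6 on its brightest probe set (0.00) but 64.5 with FGF-AS siRNA and 108.4 with control siRNA on the other (-0.70).

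Promoters of this arm were searched for the C/EBP-ATF response element, to which ATF4 binds as a dimer with C/EBP proteins, spelled TGATGNAA and searched on either strand. RefSeq promoters (GRCh38.p14, 250 bases before to 50 after the start) were matched for 31 of the 37 symbols. These letters occur in 4 of 14 matched genes of the arm, in 0 of 8 of the chaperone arm and in 4.46% of all 27305 genes in the table. The windows below are shown because they mark the ATF4 arm's own element, in genes from the highest ratio of the arm to a ratio near 0. Each reads 5′ to 3′ in the direction of the gene, and capitals mark the element, as TTGCATCA where it lies on the opposite strand. They lie at chr15:40953244-40953287 (+) for CHAC1, chr19:33374053-33374096 (+) for CEBPG, chr7:97872451-97872494 (-) for ASNS and chr1:212565198-212565241 (+) for ATF3.
CHAC1: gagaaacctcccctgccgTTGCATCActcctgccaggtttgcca
CEBPG: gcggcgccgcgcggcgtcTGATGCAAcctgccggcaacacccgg
ASNS: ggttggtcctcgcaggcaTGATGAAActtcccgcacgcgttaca
ATF3: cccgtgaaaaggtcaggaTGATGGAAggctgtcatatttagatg
The element starts 209 bases before the start of CHAC1, 42 before CEBPG, 68 before ASNS and 191 before ATF3. By brightest probe set, the log2 ratios of these genes were 0.91, 0.45, 0.12 and -0.01. The other measured probe sets of CEBPG and ATF3 gave -0.04 and -0.31. None of these ratios is taken as resolved from 0, so a difference among genes that share the letters is not resolved either. Over all genes described, the 5 with the element had a median of 0.12 and the 25 matched genes without it a median of 0.11.

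**Figure D2:**
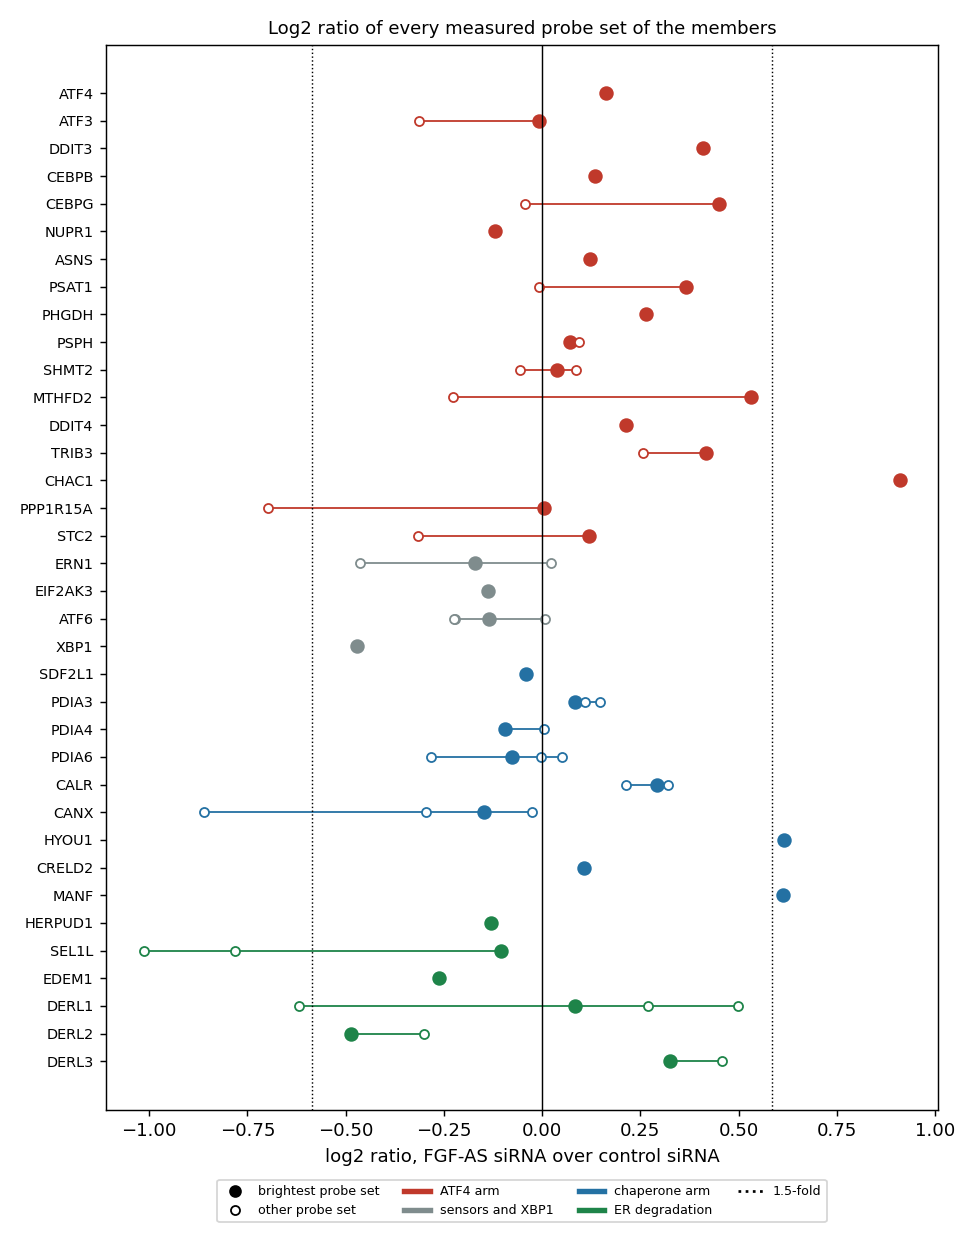
Log2 ratio of FGF-AS siRNA over control siRNA for every measured probe set, with the brightest filled and the others open; dotted lines mark 1.5-fold. CHAC1, HYOU1 and MANF pass the right line, while SEL1L, CANX, PPP1R15A and DERL1 have open points beyond the left line. That of DERL1 passed the signal minimum only through the control siRNA array.

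The sensors and XBP1 were all below 0 (4 of 4), against 51.8% of all measured genes, by small amounts, with a median of -0.15. XBP1, the factor that IRE1 activates by splicing, read 566.4 on the FGF-AS siRNA array and 786.9 on the control siRNA array, 1.39-fold lower. This was the largest difference among the 4, and the signal does not separate spliced from unspliced mRNA. EIF2AK3, the sensor kinase PERK, read 322.9 with FGF-AS siRNA and 355.8 with control siRNA (-0.14). ERN1, the sensor IRE1, read 121.2 on the FGF-AS siRNA array and 137.1 on the control siRNA array (-0.17), with -0.46 and 0.02 on its other probe sets. ATF6, the sensor cut in the Golgi, read 342.8 with FGF-AS siRNA and 376.9 with control siRNA (-0.13), and its 3 other probe sets ran from -0.22 to 0.01. The ERN1, EIF2AK3 and ATF6 ratios were all smaller than the probe set SD.

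The chaperone arm was divided. Its 9 genes had a median of 0.08 (SD across genes 0.29), 5 of them above and 4 below 0, beside 48.1% of all measured genes above 0. Relative to the median of all genes, 5 of 9 were above it as reported, a count that median centring cannot change. HYOU1, a large ER chaperone of the HSP70 superfamily, read 1209.2 on the FGF-AS siRNA array and 787.4 on the control siRNA array, 1.53-fold higher. MANF, a secreted ER stress protein, read 1841.1 on the FGF-AS siRNA array and 1202.3 on the control siRNA array, also 1.53-fold higher. Each has 1 probe set, so neither has a second reading, and the ratios are 1.72 (HYOU1) and 1.71 (MANF) times the SD of bright probe sets. CALR, the lectin chaperone calreticulin, read 1757.9 with FGF-AS siRNA and 1435 with control siRNA (0.29), and its other probe sets gave 0.21 and 0.32. All 3 CALR probe sets were higher, each by less than the SD of bright probe sets. By their suffix, 212953_x_at and 214315_x_at are open to cross-hybridisation, and 200935_at (0.32) is not so marked.

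CANX, the membrane-bound lectin calnexin, went the other way. It read 6780 with FGF-AS siRNA and 7509.5 with control siRNA on its brightest probe set (-0.15), and 1845.1 and 3354.8 on another (208853_s_at, -0.86). All 4 measured CANX probe sets were below 0, from -0.86 to -0.03, so the direction was shared and the size was not. The disulfide isomerases lay close to 0. PDIA3 ran from 0.08 to 0.15 on 3 probe sets, PDIA4 gave -0.09 and 0.00, and PDIA6 ran from -0.28 to 0.05 on 4. CRELD2, an ER stress-induced folding factor, read 987.3 on the FGF-AS siRNA array and 916.6 on the control siRNA array (0.11). SDF2L1, a component of ER chaperone complexes, read 765 on the FGF-AS siRNA array and 786.9 on the control siRNA array (-0.04). The signs of SDF2L1, PDIA4 and PDIA6 turned when the arrays were scaled by median centring.

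Promoters of this arm are known for the ER stress response element, at which ATF6 acts with NF-Y, spelled CCAAT and CCACG with 9 free bases between them. A shorter form is spelled ATTGG and CCACG with 1 free base between them, and both were searched on either strand. The long form occurs in 4 of 8 matched genes of the arm and in 0.0916% of all genes, and the short form in 2 of 8 and in 0.0696%. None of the 14 matched ATF4 arm genes holds either. The windows below, in capitals at the long form, show members on both sides of 0. They lie at chr19:12938366-12938420 (+) for CALR, chr22:49918536-49918590 (+) for CRELD2, chr2:10812835-10812889 (-) for PDIA6, chr5:179698760-179698814 (+) for CANX and chr22:28800585-28800639 (-) for XBP1, and HSPA5 at chr9:125241373-125241427 (-) is added as the textbook example.
CALR: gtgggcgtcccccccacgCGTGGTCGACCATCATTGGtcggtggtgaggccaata
CRELD2: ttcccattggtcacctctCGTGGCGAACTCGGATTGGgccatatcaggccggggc
PDIA6: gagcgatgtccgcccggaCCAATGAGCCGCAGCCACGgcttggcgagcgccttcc
CANX: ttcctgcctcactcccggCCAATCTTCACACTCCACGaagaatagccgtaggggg
XBP1: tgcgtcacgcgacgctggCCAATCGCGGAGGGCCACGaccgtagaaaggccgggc
HSPA5: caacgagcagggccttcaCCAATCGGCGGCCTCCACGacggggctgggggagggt
In CALR and CRELD2 the element lies on the opposite strand. The ratios, in the order of the lines, were 0.29, 0.11, -0.08, -0.15, -0.47 and -0.01. Over both forms, the 8 genes that hold one had ratios from -0.47 to 0.62 and a median of -0.06. Of them 3 were above and 5 below 0, beside 51.8% of all measured genes below 0.

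The promoters of HYOU1 and MANF are printed whole because these genes had the highest ratios of the arm. HYOU1 (chr11:119057156-119057455, -) holds the short form at 2 places on the opposite strand. The one farther from the start overlaps the letters TGACGTGG, the unfolded protein response element bound by XBP1, which occur in 0.927% of all genes. MANF (chr3:51385041-51385340, +) holds none of the 4 elements searched in this window.
HYOU1: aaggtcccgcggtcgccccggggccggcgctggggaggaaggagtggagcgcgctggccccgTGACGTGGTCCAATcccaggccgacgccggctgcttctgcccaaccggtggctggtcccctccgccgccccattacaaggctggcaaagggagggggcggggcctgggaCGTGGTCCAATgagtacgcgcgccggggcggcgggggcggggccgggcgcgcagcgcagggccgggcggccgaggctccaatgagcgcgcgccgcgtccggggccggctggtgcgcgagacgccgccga
MANF: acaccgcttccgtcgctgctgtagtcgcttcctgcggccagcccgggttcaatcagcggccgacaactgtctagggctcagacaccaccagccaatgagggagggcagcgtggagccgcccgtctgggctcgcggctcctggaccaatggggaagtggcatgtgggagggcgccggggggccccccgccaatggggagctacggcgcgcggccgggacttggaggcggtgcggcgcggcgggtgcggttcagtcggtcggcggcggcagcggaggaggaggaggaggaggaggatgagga
The short form starts 79 and 185 bases before the HYOU1 start. SDF2L1 also holds the short form, 188 bases before its start, at a ratio of -0.04.

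Of the 6 measured ER degradation genes, 4 were below 0, near the 51.8% of all measured genes, and their median was -0.12 (SD across genes 0.28). The median was 0.0036 over 4 genes when _s_at and _x_at probe sets were left out. DERL3, among these 4, passed the signal minimum only through the FGF-AS siRNA array, where it is higher. DERL2, a membrane protein of the export channel, read 628.8 on the FGF-AS siRNA array and 882.5 on the control siRNA array, 1.40-fold lower, and its other probe set gave -0.30. EDEM1, a mannose-trimming protein that marks glycoproteins for removal, read 185.7 with FGF-AS siRNA and 223.9 with control siRNA (-0.26). HERPUD1, which organises the ligase complex, read 1561 on the FGF-AS siRNA array and 1708.9 on the control siRNA array (-0.13). None of these passed 1.5-fold.

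SEL1L, the adaptor of the ligase SYVN1, depended on the probe set. Its brightest read 460.7 with FGF-AS siRNA and 495.4 with control siRNA (-0.10), a second read 95.3 and 198.5 (-1.01), and another read 81.2 and 144 (-0.78). All measured SEL1L probe sets were below 0, although the brightest stood at 0.011 under median centring, and the second was the largest downward difference among the 69 measured probe sets described here. DERL1, a relative of DERL2, was mixed: 219402_s_at gave 0.08, 222543_at 0.27, 218172_s_at 0.50 and the dim 225488_at -0.62. The last read 21.2 with FGF-AS siRNA and 35.8 with control siRNA. It passed the signal minimum only through the control siRNA array, so its sign follows from the minimum. DERL3, the family member of secretory cells, was dim, at 30.6 on the FGF-AS siRNA array and 23.2 on the control siRNA array (0.32). DERL3 passed the signal minimum only through the FGF-AS siRNA array.

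HERPUD1 holds elements of both arms, and is shown for that reason. Its C/EBP-ATF response element (first line, chr16:56931948-56931991, +) starts 176 bases before the start, on the opposite strand. Its short ER stress response element (second line, chr16:56932007-56932053, +) starts 117 bases before the start.
HERPUD1: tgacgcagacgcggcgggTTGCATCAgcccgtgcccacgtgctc
HERPUD1: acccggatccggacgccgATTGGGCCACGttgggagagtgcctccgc
Both classes of element thus stand in a gene whose ratio was -0.13.

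Set side by side, the median of the ATF4 arm was 0.16, that of the chaperone arm 0.08 and that of ER degradation -0.12. The ATF4 arm exceeded the chaperone arm by 0.08 and ER degradation by 0.28, and the chaperone arm exceeded ER degradation by 0.20, all on the log2 scale. Their ranges overlapped: -0.12 to 0.91 in the ATF4 arm, -0.15 to 0.62 in the chaperone arm and -0.49 to 0.32 in ER degradation. With 1 array a group these differences have no test. Scaling moves them together: under median centring the median of all measured genes was 0.10, a shift of 0.11, and the ATF4 arm stood at 0.28, the chaperone arm at 0.20 and ER degradation at -0.0028. Relative to the median of all genes, the ATF4 and chaperone arms were above it under all 9 settings run, the sensors below it under all 9, and ER degradation below it under 8. The exception for ER degradation left out _s_at and _x_at probe sets. Its few genes include DERL3, which passed the signal minimum only through the FGF-AS siRNA array. These settings are not independent checks. Median centring adds the same constant to every ratio and cannot change a position relative to that median. Dropping the signal minimum left the ratios of the genes described here as they were.

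Probe sets other than the brightest had a ratio above 0 in 14 of 33 cases here, and the brightest in 22 of 36. Over all genes the shares were 37.7% and 48.1%. Of the 69 measured probe sets of the 36 genes, 36 were above 0, against 43.2% of all measured single-gene probe sets. At least 1.5-fold higher were 3 (7.54% overall) and at least 1.5-fold lower were 5 (15.1% overall). At least 2-fold higher were 0 (1.94% overall), and 1, of SEL1L, was at least 2-fold lower (5.33% overall). Among the 20 genes with several measured probe sets, 5 had all of them above 0, 4 had all below 0 and 11 were mixed. Those all above 0 were PSPH, TRIB3, PDIA3, CALR and DERL3, and those all below 0 were ATF3, CANX, SEL1L and DERL2. Both DERL3 probe sets had control siRNA signals (23.2 and 20.1) below the signal minimum. They passed only through the FGF-AS siRNA array, so their shared direction follows from the minimum. The DERL1 probe set 225488_at passed only through the control siRNA array, so its sign follows from the minimum too. It is among the 5 that were at least 1.5-fold lower, and it puts DERL1 among the 11 mixed genes. The split into genes all above 0, all below 0 and mixed was not counted over all genes.

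**Figure D3:**
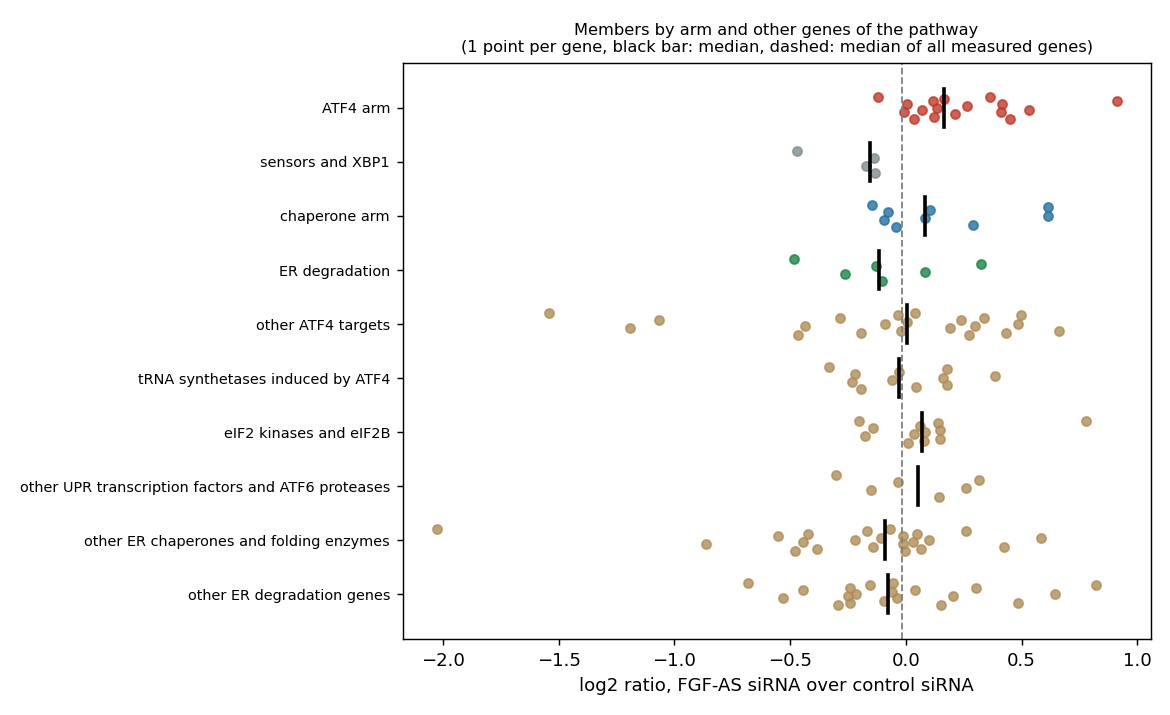
Log2 ratio of FGF-AS siRNA over control siRNA for the genes of each arm and for other genes of the pathway, 1 point a gene, with the median of each list as a black bar and the median of all measured genes dashed. The ATF4 arm lies mostly to the right, while other ATF4 targets spread from -1.54 to 0.66.

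Other genes of the pathway, taken from lists of ATF4 targets, tRNA synthetases, eIF2 regulators, chaperones and degradation genes, were read as context for the arms. The 21 other measured ATF4 targets had a median of 0.00, with 11 above and 10 below 0, beside 48.1% of all measured genes above 0. Of these targets 3 were at least 2-fold lower, against 2.72% of all measured genes. At the stricter minimum 10 of 15 were above 0, against 49.4% of all genes there, with a median of 0.19, beside 0.21 in the ATF4 arm. At that minimum 1 was at least 2-fold lower, beside 86 of all 7719 genes. SLC7A5, a subunit of the large neutral amino acid transporter, read 1980 on the FGF-AS siRNA array and 1249.4 on the control siRNA array, 1.58-fold higher. GDF15, a stress cytokine, read 5643.3 on the FGF-AS siRNA array and 3998.2 on the control siRNA array, 1.41-fold higher. SESN2, a stress sestrin that p53 also controls, read 247.7 with FGF-AS siRNA and 733.5 with control siRNA, a log2 ratio of -1.54, and -0.79 on its other probe set. KLHL24, a ubiquitin ligase adaptor, read 53 with FGF-AS siRNA and 129 with control siRNA, and all 4 of its measured probe sets were lower, from -1.23 to -0.88. ALDH1L2, a mitochondrial folate enzyme like MTHFD2 and named here after its values were seen, read 68.5 with FGF-AS siRNA and 150.3 with control siRNA (-1.07). By their brightest probe sets MTHFD2 (0.53) and ALDH1L2 had opposite signs, but the other MTHFD2 probe set was below 0 as well (-0.23).

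The 11 measured tRNA synthetases, which ATF4 induces when amino acids are short, lay near 0, with a median of -0.03 and a range from -0.33 to 0.39. TARS1 read 3391.9 on the FGF-AS siRNA array and 2592.3 on the control siRNA array (0.39), IARS1 gave 0.18, LARS1 -0.33 and AARS1 -0.23. The C/EBP-ATF response element occurs in 7 of the 10 listed synthetases with a matched promoter, among them MARS1, which had no probe set of its own, and in 4.46% of all genes in the table. Of 12 genes of eIF2 and its regulators, 9 were above 0, against 48.1% of all measured genes, with a median of 0.07. EIF2S3, the gamma subunit of eIF2, read 3711.7 on the FGF-AS siRNA array and 2160.5 on the control siRNA array, 1.72-fold higher, and 0.57 and -0.51 on its other probe sets. EIF2AK1, the haem-regulated kinase of eIF2, gave 0.15, the amino acid-sensing kinase EIF2AK4 gave -0.18 and EIF2B2, of the exchange factor, gave -0.20.

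The 22 other ER chaperones and folding enzymes had a median of -0.09, with 7 above and 15 below 0, beside 51.8% of all measured genes below 0. HSPA5, the chaperone BiP that is the common reporter of ER stress, was looked up after the values were seen. It read 10579.3 on the FGF-AS siRNA array and 10682.2 on the control siRNA array (-0.01). HSPA5 and HYOU1, which work together in the ER, thus had ratios of -0.01 and 0.62. DNAJC3, a co-chaperone of BiP, read 167.1 with FGF-AS siRNA and 699.5 with control siRNA, 4.07-fold lower, but between -2.05 and -0.07 on its other probe sets. HSPA13 gave -0.86 on its brightest probe set and 0.47 on the other. FKBP2, an ER prolyl isomerase, read 272 on the FGF-AS siRNA array and 179.2 on the control siRNA array (0.59), and DNAJB11, a further co-chaperone of BiP, gave 0.42.

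The 20 other ER degradation genes had a median of -0.08, with 7 above and 13 below 0, beside 51.8% of all measured genes below 0. OS9, a lectin that delivers glycoproteins to SEL1L, read 1263.6 on the FGF-AS siRNA array and 713.3 on the control siRNA array, 1.76-fold higher, and 0.47 on its other probe set. HERPUD2, a relative of HERPUD1, was 1.56-fold higher, and its 3 probe sets ran from 0.64 to 0.78. OS9 and HERPUD2 were named as the 2 genes furthest above 0 in this list. That they lay above SEL1L (-0.10) and HERPUD1 (-0.13) therefore follows from the choice. MARCHF6, an ER ubiquitin ligase, gave -0.68 on its brightest probe set and from -2.55 to 0.26 on its other measured probe sets. The lowest of these read 12 with FGF-AS siRNA and 99.8 with control siRNA, and passed the signal minimum only through the control siRNA array. UBE2J1, a conjugating enzyme, gave -0.53 on its brightest and from -0.52 to 0.45 on its other measured probe sets. The 6 other measured unfolded protein response factors and ATF6 proteases had a median of 0.05. MBTPS1 gave 0.32 on its brightest probe set and 0.18 on the other. MBTPS2 gave 0.26 on its brightest but -0.66 on its other measured probe set, and CREB3L2 gave -0.30 but 0.85. ATF6B, which was dim, gave -0.15 on its brightest and -1.79 on its other measured probe set. The latter passed the signal minimum only through the control siRNA array (8.9 with FGF-AS siRNA, 45.7 with control siRNA).

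**Figure D4:**
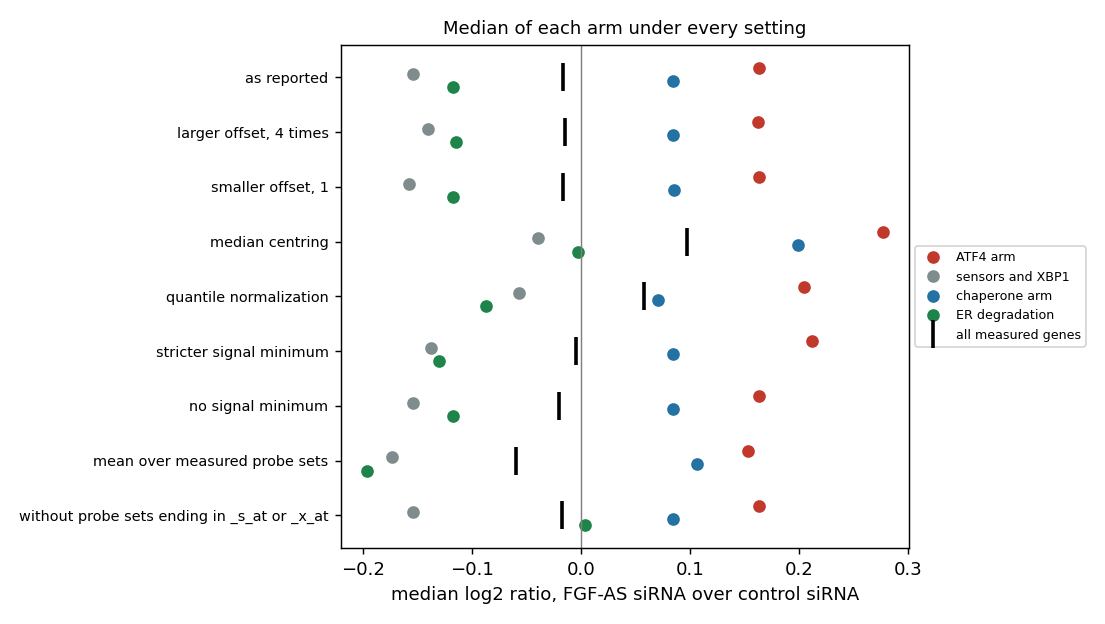
Median log2 ratio of FGF-AS siRNA over control siRNA in each arm under the reported setting and 8 others, with the median of all measured genes as a black tick. The ATF4 arm stays rightmost, from 0.15 to 0.28, while ER degradation crosses the all-gene tick when _s_at and _x_at probe sets are left out, at 0.0036. The genes left there include DERL3, which passed the signal minimum only through the FGF-AS siRNA array.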

How the data were processed

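RNA of 1 array per group was measured. Values are the deposited probe set intensity on a linear scale; per the submitters' processing notes GCOS and MAS5 were used, with no version or scaling target given. Per the labels' protocols, oligo-dT-primed cRNA was biotin-labelled. The arrays were not scaled further (medians 23.1 with FGF-AS siRNA, 25.5 with control siRNA). Control probe sets (62 of 54675) were left out. Of the others, 41091 had 1 gene symbol, 1801 several and 11721 none; 41037 were matched by gene identifier to RefSeq GRCh38.p14, which changed 0 symbols.

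With Python 3.11.15 and pandas 2.3.3, log2(signal + 6.1) was subtracted between arrays, the offset being the 25th percentile of signals. Signal minima were the median (23.85) and the 75th percentile (145.15) of mean signals. Detection calls were not used, and precision is limited by there being 1 array a group. The calculation was tested on simulated data. Sequences came from RefSeq promoters. Named by rule were all members, the 2 measured genes furthest above and below 0 in each other list, and NUDT6. Outside that rule, some cell type markers, MARS1 (for its promoter) and, after their values were seen, ALDH1L2 and HSPA5 were named. The members and lists were chosen with earlier results of these data known.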

Additional observations from a re-analysis of the deposited data

How the results depend on the processing

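No paired analysis was possible because each group has 1 array, and no replicate could be left out. Under 8 alternatives (other offsets, scalings, signal minima, averaging over probe sets, and leaving out _s_at and _x_at probe sets), no gene past 1.5-fold turned its direction. Those genes, CHAC1, HYOU1 and MANF, have 1 probe set each, so the settings that change the choice of probe sets could not turn them. Median centring moved the medians to 0.28 in the ATF4 arm, -0.040 in the sensors and 0.20 in the chaperone arm. It took the ATF4 arm to 2 of 17 genes at least 1.5-fold higher, beside 1409 of all 12352 measured genes. The added gene was MTHFD2, by the brightest of its 2 probe sets. Quantile normalization put the sensors at -0.057. At the stricter minimum 0 ATF4 arm genes passed 1.5-fold, since CHAC1 is dim. Without _s_at and _x_at probe sets, the chaperone arm kept 1 gene at least 1.5-fold higher, HYOU1 having no other probe set. Of all 9580 genes left, 832 were that much higher. ER degradation then stood at 0.0036 over 4 genes, among them DERL3, which passed the signal minimum only through the FGF-AS siRNA array. With the mean over probe sets, SEL1L (-0.63) became the 1 ER degradation gene at least 1.5-fold lower, beside 1367 of all 12352 genes. The signs of 6 genes turned under a scaling: ATF3, NUPR1, SDF2L1, PDIA4, PDIA6 and SEL1L. Over all measured genes, 45.5% of those past 1.5-fold were higher, against 63.6% under median centring and 61.8% under quantile normalization; counts were 984 higher and 1177 lower, against 2518 and 2898 with no minimum and 444 and 444 at the stricter one. Dim genes such as CHAC1, DERL3 and NUPR1 cannot be told from background without detection calls.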
